A study of Mus musculus with 6 samples.

Results

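Alcohol dehydrogenases (ADH) and aldehyde dehydrogenases (ALDH) were followed in primary mouse hepatocytes by bulk RNA-Seq, before and 48 h after partial hepatectomy (PHx), an operation that takes out most of the liver. The group holds 10 genes, which are the 3 alcohol dehydrogenases Adh1, Adh4 and Adh5 and the 7 aldehyde dehydrogenases Aldh1a1, Aldh1a7, Aldh1b1, Aldh2, Aldh3a2, Aldh8a1 and Aldh9a1. They were taken by gene name from the 55450 genes in the count files, by a rule that uses no measured value but was drawn up with earlier results of these data known, and all 10 were among the 17037 genes with enough counts to be tested. Of the 6 libraries, 3 came from undamaged livers (0 h) and 3 from livers 48 h after PHx, each from a separate preparation of hepatocytes by collagenase perfusion. All mice were C57BL/6 by the labels and male C57BL/6J by the study's methods, on a normal diet and aged 10 to 12 weeks by the sample labels, with no transgene or drug at either time. No sham operation is named for the 0 h mice, so the loss of liver mass and the surgery itself cannot be told apart.

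These enzymes act in sequence. An alcohol dehydrogenase oxidizes an alcohol to an aldehyde, and an aldehyde dehydrogenase oxidizes that aldehyde to an acid, both usually with NAD+ as the acceptor. The liver is their main site for ethanol, which passes through acetaldehyde to acetate, but individual family members also handle retinoids, formaldehyde, fatty aldehydes, and intermediates of tryptophan breakdown and carnitine synthesis.

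The 0 h libraries held 31419443 to 36346220 gene counts each, and the 48 h libraries 31684152 to 33093006. Levels are given below as CPM, counts scaled to a common library total by the TMM method, which sets the bulk of genes to an equal level in all libraries, and as TPM, which also divide by exon length and allow genes to be ranked. Differences are log2 fold changes of 48 h against 0 h from edgeR's quasi-likelihood test, with p adjusted by the Benjamini-Hochberg method over all genes tested and a threshold of 0.05. Scaling by library size alone raised the median log2 fold change of all genes by 0.20, so each change is relative to the bulk of the transcriptome. The hepatocyte label held up in every library, since 12 hepatocyte markers summed to between 110914 and 129949 CPM at 0 h and to between 73343 and 88749 CPM at 48 h. Of these 12 markers, 5 were lower, 1 was higher and 6 were not called, with none called higher by edgeR without 0 h replicate 1 or without 0 h replicate 3. All 10 endothelial markers were called lower at 48 h, and their sum ranged from 234 to 379 CPM at 0 h and from 169 to 182 CPM at 48 h. With 1 library left out 8 to 10 of them were called lower, and with library size alone 9 were. Clec4g and Pecam1 overlapped between the time points. Among 10 Kupffer cell markers 2 were higher and 8 were not called (78.3 to 118 CPM at 0 h, 112 to 137 CPM at 48 h), with 1 called lower without 0 h replicate 1, and among 10 stellate cell markers 1 was higher, 2 were lower and 7 were not called (123 to 191 CPM, then 86.7 to 108 CPM), or 5 lower without 0 h replicate 1. The 9 cholangiocyte markers summed to between 9.41 and 20.8 CPM at 0 h and between 16.7 and 26.2 CPM at 48 h. Of the 2 that were tested, 1 was higher (Spp1, log2 fold change 1.51, edgeR adjusted p = 0.0212), a call lost without 0 h replicate 2, 0 h replicate 3 or 48 h replicate 3. The 8 neutrophil markers, none with enough counts to be tested, summed to at most 0.408 CPM at 0 h and 1.06 CPM at 48 h. Of these, the cholangiocyte markers Krt7, Epcam and Cftr and 6 neutrophil markers (S100a8, S100a9, Ngp, Ltf, Retnlg and Mpo) stood at 3 counts or fewer in every library. The other neutrophil markers, Camp and Elane, had 0 to 5 counts per library at 0 h and 6 to 26 at 48 h. The part of these markers in the changes below was not tested. In bulk RNA, fewer cells of a type and less RNA per cell cannot be told apart.

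At 48 h, Aldh2, Aldh8a1 and Aldh9a1 fell by between 32.0% and 35.5%, and Aldh1a7 rose by 52.3%. The other 6 genes did not pass the threshold, and among them Adh1, the most abundant member per length (TPM), had a log2 fold change of 0.15. In total 4 of the 10 genes were called, against 40.7% of all genes tested. By direction 1 was higher, against 21.4% of all genes, and 3 were lower, against 19.3%. For 5 genes the 0 h and 48 h libraries did not overlap, against 52.7% of all genes, with 1 of them higher (27.8% of all genes) and 4 lower (25% of all genes). Against the background, the counts of called genes and of genes without overlap were near in total, below it for higher genes and above it for lower genes, by less than 2 genes in each case. The number called lower was not stable. It was 3 to 5 with 1 library left out, and 1 with scaling by library size alone, where 2110 of all 17037 genes were lower. The median log2 fold change of the 10 genes was -0.48, and that of all genes tested was -0.0033.

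**Figure D1:**
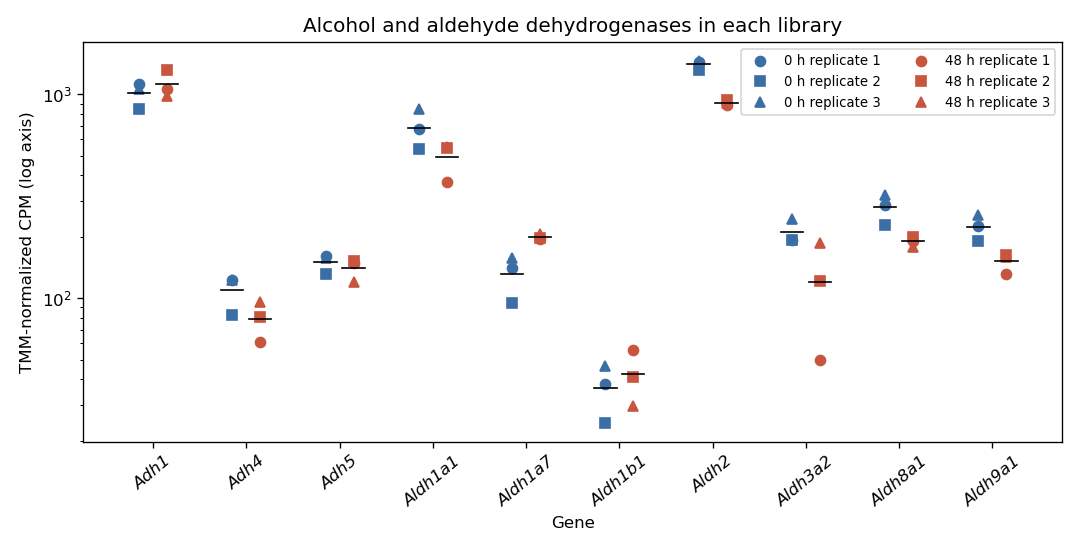
TMM-scaled CPM on a log axis for each of the 10 genes, with 3 points for the 0 h libraries (blue) and 3 for the 48 h libraries (red), shapes for replicate numbers, and black bars for group means. All 48 h points of Aldh2, Aldh8a1, Aldh9a1 and Aldh3a2 lie below the 0 h points, and all those of Aldh1a7 lie above.

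Ranked per length, the order of the genes was led by Adh1, Aldh2 and Aldh1a1 at both times. At 0 h their mean levels were 1176, 713 and 359.6 TPM, and the libraries of each did not overlap with those of the next. Adh4 (196 TPM), Aldh9a1 (171 TPM), Aldh8a1 (165 TPM) and Aldh1a7 (164 TPM) came next, and each of them overlapped with its neighbour in this order. Aldh3a2 (96.9 TPM), Adh5 (72.0 TPM) and Aldh1b1 (40.8 TPM) closed the order without overlap. At 48 h Adh1 stood at 1560.0 TPM and Aldh2 at 551 TPM, and Aldh1a7 (301 TPM) had moved from rank 7 to rank 4, where it overlapped with Aldh1a1 (309.9 TPM). Adh5 (80.5 TPM), Aldh3a2 (67.1 TPM) and Aldh1b1 (56.7 TPM) overlapped at the bottom of the 48 h order. TPM are shares of each library, so the ranks hold within a time point, and changes of single genes were tested on counts.

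The alcohol dehydrogenase genes lie in 1 cluster on the plus strand of chromosome 3 of GRCm38, which runs for 238 kb from 138217760 to 138455499 in the order Adh7, Adh1, Adh6a, Adh6b, Adh4, Adh5. Adh1 (ENSMUSG00000074207.10, chr3:138260991-138290698) encodes the class I enzyme that carries out most hepatic ethanol oxidation and also oxidizes retinol. It was counted at 1124, 847 and 1066 CPM at 0 h and at 1063, 1319 and 981 CPM at 48 h. The groups overlapped, with 1 library at 48 h above all others, and the log2 fold change was 0.15 (SE 0.167, 95% interval -0.22 to 0.52, edgeR adjusted p = 0.517). It was 0.00047 without 48 h replicate 2 and 0.034 without 0 h replicate 2. An antisense gene, Gm16559, covers 6.09% of the Adh1 exons, and whether reads were counted by strand is not given in the sources used here.

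Adh4 (ENSMUSG00000037797.14, chr3:138415466-138430892) encodes the class II enzyme, which oxidizes larger alcohols as well as ethanol at high concentration. Its levels were 123, 83.0 and 123 CPM at 0 h and 60.8, 80.8 and 95.7 CPM at 48 h. The lowest 0 h library lay within the 48 h range, and the log2 fold change of -0.47 did not pass the threshold (SE 0.190, edgeR adjusted p = 0.0724). Leaving out 0 h replicate 2 gave -0.64 (edgeR adjusted p = 0.0174) and leaving out 48 h replicate 3 gave -0.64 (edgeR adjusted p = 0.0258). With all libraries kept, it also passed with DESeq2 (DESeq2 adjusted p = 0.0449) and with upper quartile scaling (edgeR adjusted p = 0.0358). The same held for TMM factors from protein-coding genes (edgeR adjusted p = 0.0431) and for no filter (edgeR adjusted p = 0.00816). The side of the threshold thus depended on single libraries and on the method.

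Adh5 (ENSMUSG00000028138.8, chr3:138443093-138455499), the class III enzyme, is the glutathione-dependent formaldehyde dehydrogenase and also reduces S-nitrosoglutathione. It was counted at 161, 132 and 157 CPM at 0 h and at 149, 153 and 119.7 CPM at 48 h, and the groups overlapped. The log2 fold change was -0.10 (95% interval -0.39 to 0.20, edgeR adjusted p = 0.599) and turned to 0.10 with scaling by library size alone. Its RefSeq start is set in GC-rich sequence. The 120 bases upstream of the second Adh5 start on GRCm38.p6 (chr3:138442973-138443092, plus strand) are shown because they stand in contrast to the pair of Aldh1a promoters shown with those genes. They have a GC content of 73.3% and hold the GC box GGGCGG 3 times, each on the reverse strand (capitals, as CCGCCC), with first bases at -108, -70 and -45 from the start. GC boxes on either strand occur in 35.7% of 32851 mouse promoters of 300 bases.

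Adh5, second start: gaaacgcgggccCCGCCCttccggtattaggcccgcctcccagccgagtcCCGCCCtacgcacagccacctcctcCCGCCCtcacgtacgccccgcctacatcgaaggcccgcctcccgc

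The remaining genes of the cluster are the class IV enzyme Adh7, at the upstream end, and Adh6a and Adh6b. Adh7 was counted at 47.0, 48.1 and 42.3 CPM at 0 h and at 11.2, 19.9 and 21.8 CPM at 48 h. It fell by 1.38 on the log2 scale (SE 0.205, edgeR adjusted p = 0.000438), with no overlap. Adh6a reached at most 1 count and Adh6b at most 8 counts in a library, so neither was tested. Within this cluster Adh7 alone was called of the 4 genes tested, and the differences between the changes of the 4 genes were not tested.

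Acetaldehyde from ethanol is oxidized mainly by Aldh2, the mitochondrial enzyme (ENSMUSG00000029455.14, chr5:121566027-121593824). Aldh2 was counted at 1445, 1312 and 1463 CPM at 0 h and at 881, 940.1 and 902 CPM at 48 h. The replicates of each time point lay close together, and the lowest 0 h library was well above the highest 48 h library. Aldh2 fell by 0.63 on the log2 scale (SE 0.131, edgeR adjusted p = 0.00332) and was called lower in all 16 alternative analyses, with values of -0.71 to -0.43 and adjusted p up to 0.0268. Gm42879, on the opposite strand, covers 2.54% of the Aldh2 exons.

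Aldh1b1 (ENSMUSG00000035561.5, chr4:45799022-45804604), a second mitochondrial enzyme with activity on acetaldehyde, is the closest relative of Aldh2 among these genes, with 71.7% identical aligned coding bases. Its levels were 38.0, 24.3 and 46.4 CPM at 0 h and 55.9, 41.2 and 29.7 CPM at 48 h. The groups overlapped almost fully, with a log2 fold change of 0.22 (95% interval -0.33 to 0.78, edgeR adjusted p = 0.515). The sign turned when 48 h replicate 1 was left out (-0.047).

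Adh1 and Aldh2, which form the main hepatic route from ethanol to acetate, were also compared as a ratio within each library, which needs no scaling between libraries. This ratio and the others below were chosen after the values were seen. Of the 45 possible pairs of the 10 genes, 20 had ratios that did not overlap between the time points, among them 7 of the 9 pairs that contain Adh1. The share among pairs of other genes was not computed, and 52.7% of all genes tested did not overlap as single genes. The 45 pairs reuse the same 10 genes and are not independent, so these counts are a description only. The log2 ratio of Adh1 counts to Aldh2 counts was -0.36, -0.63 and -0.46 at 0 h and 0.27, 0.49 and 0.12 at 48 h. Every 48 h library was above every 0 h library, with a mean difference of 0.78 (p = 0.1 in a two-sided exact permutation test, which cannot go lower with 3 libraries per group). The log2 ratio of Adh1 to Adh4 counts went from 3.22 ± 0.118 (SD, n = 3) in undamaged liver to 3.84 ± 0.419 (SD, n = 3) after PHx, a difference of 0.62 with p = 0.1 in the same exact permutation test. Here the lowest 48 h library (3.36) was barely above the highest 0 h library (3.35).

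**Figure D2:**
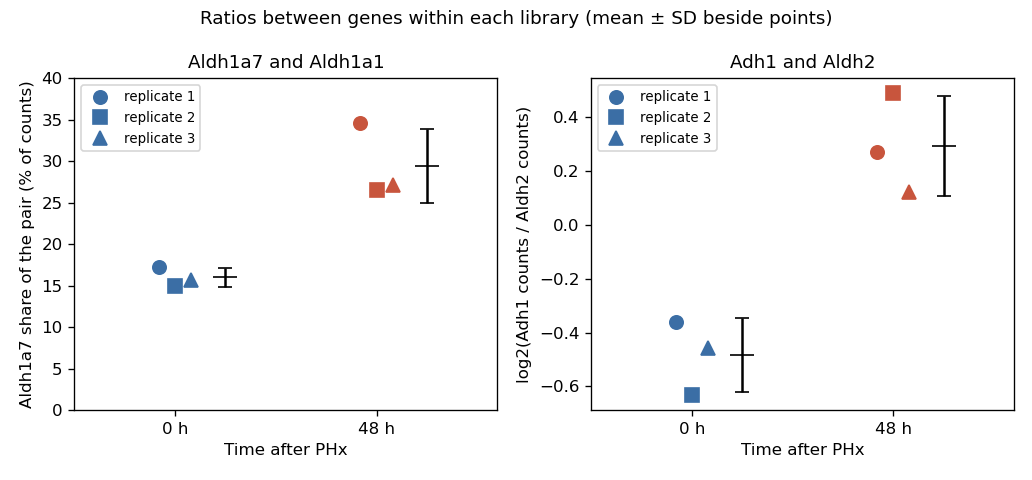
Ratios within each library at 0 h (blue) and 48 h (red), with the Aldh1a7 share of the summed Aldh1a7 and Aldh1a1 counts in percent on the left and the log2 ratio of Adh1 to Aldh2 counts on the right, shapes for replicate numbers, and mean ± SD beside the points. The Aldh1a7 share lies between 15.0% and 17.3% at 0 h and between 26.5% and 34.6% at 48 h, and the Adh1 to Aldh2 ratio is below 0 in the 0 h libraries and above 0 in the 48 h libraries.

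Aldh1a1, a cytosolic enzyme that oxidizes retinal to retinoic acid, and its rodent paralogue Aldh1a7 are neighbours on chromosome 19 of GRCm38, separated by 49.5 kb and transcribed toward each other. Aldh1a1 (ENSMUSG00000053279.8, chr19:20492715-20643465, plus strand) was counted at 674, 536 and 847 CPM at 0 h and at 369, 546 and 553 CPM at 48 h. The groups overlapped by a single 0 h library, and the log2 fold change of -0.49 did not pass the threshold (SE 0.204, edgeR adjusted p = 0.0817). Without that library, 0 h replicate 2, it was -0.64 (edgeR adjusted p = 0.0331), and without 0 h replicate 3 it was -0.31 (edgeR adjusted p = 0.293). With all libraries kept, it passed with DESeq2 (DESeq2 adjusted p = 0.0371) and with upper quartile scaling (edgeR adjusted p = 0.0438). It also passed with TMM factors from protein-coding genes (edgeR adjusted p = 0.04998) and with no filter (edgeR adjusted p = 0.0137).

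Aldh1a7 (ENSMUSG00000024747.3, chr19:20692953-20727562, minus strand) went the other way. It was counted at 141, 94.5 and 158 CPM at 0 h and at 195, 197 and 206 CPM at 48 h, with no overlap and a narrow spread at 48 h. Aldh1a7 rose by 0.61 on the log2 scale (SE 0.171, edgeR adjusted p = 0.0167), and it was called higher in all 16 alternative analyses, with values of 0.42 to 0.81 and adjusted p up to 0.0421.

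Within the pair, Aldh1a7 took 17.3%, 15.0% and 15.7% of the pair's counts at 0 h and 34.6%, 26.5% and 27.2% at 48 h, a mean difference of 13.4 percentage points with every 48 h library above every 0 h library (p = 0.1 by exact permutation, two-sided and the lowest value possible). On the log2 scale the ratio of Aldh1a7 to Aldh1a1 counts moved by 1.13. The shift was not particular to this pair, since the ratio of Aldh1a7 to Aldh3a2 moved by 1.64, that to Aldh2 by 1.27, and those to Aldh9a1 and Aldh8a1 by 1.18 or more. In 8 of the 9 pairs that contain Aldh1a7 the 0 h and 48 h libraries did not overlap. These pairs all hold the counts of Aldh1a7, and the share among pairs of other genes was not computed. Counted together as 1 gene, Aldh1a1 and Aldh1a7 had a log2 fold change of -0.25 (SE 0.190, edgeR adjusted p = 0.333). It was -0.069 without 0 h replicate 3, -0.14 without 48 h replicate 1 and -0.40 without 0 h replicate 2 (edgeR adjusted p = 0.0992).

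The coding sequences of Aldh1a1 and Aldh1a7 are identical at 92.0% of 1504 aligned bases, whereas no other pair among the ALDH genes exceeds 71.7%. Of all windows of 50 bases in their transcripts, 3.06% of those of Aldh1a1 and 7.49% of those of Aldh1a7 also occur in the other gene, and at 100 bases 1 window is shared. Reads that fall wholly in shared windows could have been dropped or assigned to either gene, and the read length is not given in the sources used here. Exact matches with other genes are thus a limit for this pair mainly if the reads were short. At 100 bases Aldh2 has 31 shared windows (0.584% of its windows), all with Gm42879.

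For 1 of the 2 RefSeq starts of Aldh1a1, the similarity extends upstream. The 120 bases before the second RefSeq start of Aldh1a1 on GRCm38.p6 (chr19:20601848-20601967, plus strand) and before the start of Aldh1a7 (chr19:20727557-20727676, minus strand) are shown because these are the promoters of 2 adjacent genes with unlike values. They are identical at 109 of 117 aligned bases (93.2%). Capitals mark the longest shared run, 65 bases that end 29 bases before the start in both genes.

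Aldh1a1, second start: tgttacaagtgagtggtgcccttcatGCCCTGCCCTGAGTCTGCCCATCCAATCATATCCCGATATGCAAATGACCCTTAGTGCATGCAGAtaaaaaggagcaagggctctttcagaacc

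Aldh1a7: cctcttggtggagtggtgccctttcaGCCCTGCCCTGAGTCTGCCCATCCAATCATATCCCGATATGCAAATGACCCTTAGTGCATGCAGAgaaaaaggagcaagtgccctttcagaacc

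The shared run holds the CCAAT box CCAAT at -72 in both, a motif found on either strand in 37.4% of mouse promoters. None of the other motifs searched on both strands lies in the shared run. These were TATAAA, the C/EBP site TTGCNNAA, the HNF1 half-site GTTAAT, the NRF2 site TGACNNNGC, the AhR core GCGTG and the GC box. The second Aldh1a1 start lies 109253 bases inside the annotated gene, and the counts do not tell which start was used. The first start, 132 bases from the annotated start of the gene, was not compared with Aldh1a7.

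Aldh3a2 (ENSMUSG00000010025.19, chr11:61223417-61267464) encodes the fatty aldehyde dehydrogenase that completes the oxidation of phytol-derived and sphingolipid-derived aldehydes. It was counted at 194, 193 and 243 CPM at 0 h and at 49.9, 121 and 187 CPM at 48 h. The groups did not overlap, but the 48 h libraries were far apart, with replicate 1 the lowest. The log2 fold change of -0.81 was the furthest from 0 among the 10 genes and also the least precise, and it did not pass the threshold (SE 0.355, 95% interval -1.60 to -0.03 before adjustment, edgeR adjusted p = 0.0924). It was -0.46 without 48 h replicate 1 and -1.30 without 48 h replicate 3, where the edgeR adjusted p was 0.00794.

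Aldh8a1 (ENSMUSG00000037542.13, chr10:21377291-21396585) oxidizes 2-aminomuconic semialdehyde in the breakdown of tryptophan and also acts on 9-cis-retinal. Its levels were 288, 228 and 321 CPM at 0 h and 191, 200.4 and 178 CPM at 48 h. No library overlapped, and Aldh8a1 fell by 0.56 on the log2 scale (SE 0.143, edgeR adjusted p = 0.0105). Aldh9a1 (ENSMUSG00000026687.14, chr1:167349991-167368532) makes the gamma-trimethylaminobutyrate from which carnitine is formed. It was counted at 225, 191 and 255 CPM at 0 h and at 132, 163 and 159 CPM at 48 h, again with no overlap, and fell by 0.56 (SE 0.142, edgeR adjusted p = 0.00985). Both calls were lost with scaling by library size alone, where Aldh8a1 had -0.35 (edgeR adjusted p = 0.0640) and Aldh9a1 -0.35 (edgeR adjusted p = 0.0811).

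**Figure D3:**
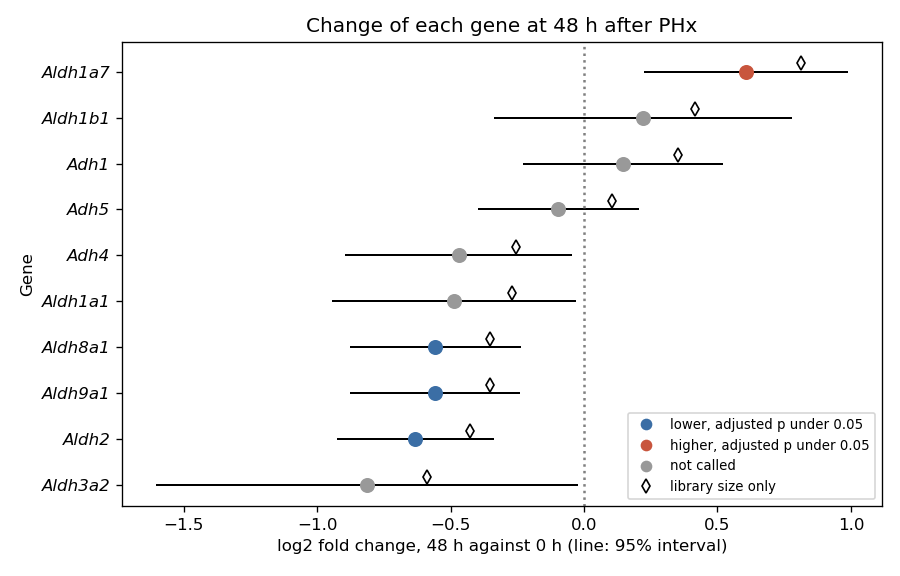
log2 fold change of 48 h against 0 h for the 10 genes, with filled points for the edgeR estimate under TMM scaling, lines for its 95% interval before adjustment, and open diamonds for the estimate under scaling by library size alone. Aldh2, Aldh8a1 and Aldh9a1 are called lower (blue) and Aldh1a7 higher (red), and the diamonds lie to the right of the points for every gene, with that of Adh5 on the other side of 0.

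The genes also shared differences among libraries of the same time point. In 0 h replicate 2 all 10 genes were at their lowest of the 3 libraries at 0 h, where 40.1% of all genes tested had their lowest value. The sum of the 10 genes was 3641 CPM in this library, against 4412 CPM in replicate 1 and 4679 CPM in replicate 3. The same library had the highest sum of endothelial markers at 0 h, 379 CPM against 234 CPM in replicate 1 and 364 CPM in replicate 3, and also the highest sum of hepatocyte markers, at 129949 CPM. At 48 h, replicate 1 held the lowest value for 6 genes and replicate 3 for the other 4, and the sums of the 10 genes were 3146, 3763 and 3411 CPM. The part of cell makeup in these differences was not tested.

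Divided by family, the 3 ADH genes together took a larger part of the summed level in every 48 h library than in any 0 h library. The summed ADH level went from 1444 to 1811 TPM (exact permutation p = 0.1), with the lowest 48 h library (1623 TPM) just above the highest 0 h library (1610 TPM). The summed ALDH level went from 1710 to 1559 TPM, and its libraries overlapped (exact permutation p = 0.4). Within the ADH sum Adh1 had the largest difference, with Adh4 at 196 and 171 TPM. TPM are shares of each library, and under TMM scaling Adh1 was not called (log2 fold change 0.15). Adh1, Adh4 and Adh5 made up 48.0%, 45.0% and 44.2% of the summed TPM of the 10 genes at 0 h and 54.4%, 56.3% and 50.3% at 48 h. The mean moved by 7.94 percentage points, from 45.7% ± 1.99 (SD, n = 3) to 53.7% ± 3.09 (SD, n = 3) (p = 0.1 by exact permutation, two-sided and the lowest value possible). The summed level of all 10 genes was 3154 ± 365 TPM (SD, n = 3) before PHx and 3370.0 ± 381 TPM (SD, n = 3) after it, and the libraries overlapped (exact permutation p = 0.5). That small difference has no stable sign, since the log2 ratio of the sums was 0.10 in TPM, -0.10 as a share of counts and -0.17 as TMM-scaled counts per kilobase.

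The genes that supply and clear the substrates of ADH and ALDH were read from the same fit. Of 6 partners in ethanol, acetate and formaldehyde metabolism, 5 were tested, 4 were lower and 1 was not called, with a median log2 fold change of -1.32. Cyp2e1, the microsomal ethanol oxidase, was counted at 5956, 7408 and 6338 CPM at 0 h and at 1571, 2280 and 2169 CPM at 48 h, and fell by 1.71 on the log2 scale (edgeR adjusted p = 6.85e-05). Catalase (Cat), which can oxidize ethanol in peroxisomes, fell by 1.11 (edgeR adjusted p = 0.000938). The acetyl-CoA synthetases Acss2, which uses acetate in the cytosol and nucleus, and Acss3 fell by 1.50 and 1.32 (edgeR adjusted p = 0.00156 and 0.00148). Esd, the S-formylglutathione hydrolase that acts after Adh5, had a log2 fold change of 0.11 (edgeR adjusted p = 0.571). Acss3 shares 33.9% of its exon bases with Ppfia2 on the opposite strand, and Acss2 shares 9.12% with opposite-strand genes.

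Among 18 further ADH and ALDH genes, 11 were tested, with 3 higher, 4 lower and a median log2 fold change of -0.16. Besides Adh7, the lower genes were Aldh6a1, the methylmalonate semialdehyde dehydrogenase of valine breakdown (log2 fold change -1.01, edgeR adjusted p = 0.000249), Aldh5a1, which oxidizes succinic semialdehyde (-0.65, edgeR adjusted p = 0.00104), and Aldh7a1, of lysine breakdown (-0.49, edgeR adjusted p = 0.0209). Aldh7a1 did not pass without 0 h replicate 1 (-0.43), 0 h replicate 3 (-0.40) or 48 h replicate 2 (-0.49, edgeR adjusted p = 0.0586), nor with scaling by library size alone (-0.29, edgeR adjusted p = 0.135). Genes on the opposite strand cover 18.6% of the Aldh6a1 exons, 17.7% of those of Aldh5a1 and 9.19% of those of Aldh7a1. The 3 higher genes, named here after their values were seen, had low counts. Aldh18a1, an enzyme of proline synthesis, was at 0.408 to 0.753 CPM at 0 h and 1.83 to 6.50 CPM at 48 h, and Aldh3b1 was at 1.26 to 1.63 CPM and 2.23 to 3.71 CPM. Aldh3b1 was not called without 48 h replicate 1 (0.64, edgeR adjusted p = 0.0782). Aldh3b3 had 1, 0 and 0 counts at 0 h and 37, 42 and 27 counts at 48 h.

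Retinoid handling, the setting of Aldh1a1 and Aldh8a1 and of Adh1, divided in both directions. Of 29 genes 25 were tested, 2 were higher and 8 lower, and the median log2 fold change was -0.13. With scaling by library size alone 5 were higher and 5 lower. Bco1, which cleaves beta-carotene to retinal, rose by 1.88 (edgeR adjusted p = 4.22e-05). Dhrs3, which reduces retinal to retinol, fell by 1.67 (edgeR adjusted p = 6.32e-06) and Rdh7, a retinol dehydrogenase, fell by 1.44 (edgeR adjusted p = 1.44e-05).

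Other enzymes that reduce or oxidize aldehydes were followed in a list of 21 aldo-keto reductases, carbonyl reductases and aldehyde oxidases. Of 19 tested, 3 were higher and 4 lower, with a median of -0.22. The aldehyde oxidases Aox3 and Aox1 fell by 1.76 and 1.03 (edgeR adjusted p = 0.000555 and 0.00846), and the carbonyl reductase Cbr1 rose by 0.86 (edgeR adjusted p = 0.00241). The number of lower genes was between 2 and 7 when 1 library was left out, and it moved by over 1.5 times without 0 h replicate 1, 2 or 3 or 48 h replicate 1.

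Routes that lead to the substrates of single ALDH genes were taken one at a time. In the tryptophan to kynurenine route, which leads to the substrate of Aldh8a1, all 8 genes were tested, 5 were lower and 2 higher, with a median of -0.94. Tdo2, the hepatic tryptophan dioxygenase that opens this route, fell by 1.71 (edgeR adjusted p = 1.01e-05), and Ido2 fell by 1.51 (edgeR adjusted p = 3.81e-05). Acmsd, whose product is the aldehyde that Aldh8a1 oxidizes, was counted at 32.5, 18.0 and 37.4 CPM at 0 h and at 129, 87.8 and 76.9 CPM at 48 h, and rose by 1.74 (edgeR adjusted p = 0.000468). Kmo, the kynurenine monooxygenase, rose by 0.58 (edgeR adjusted p = 0.00636). An antisense gene covers 3.32% of the Acmsd exons.

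In phytol and fatty aldehyde metabolism, the setting of Aldh3a2, 5 of 6 genes were lower, 1 was not called, and the median was -0.77. Pecr, which reduces phytenoyl-CoA, fell by 1.11 (edgeR adjusted p = 0.000274), and Sgpl1, the sphingosine phosphate lyase that releases a fatty aldehyde, fell by 1.03 (edgeR adjusted p = 0.000107). Hacl1, a lyase of alpha-oxidation, fell by 0.91 (edgeR adjusted p = 0.00294). Gm49387, on the same strand, covers 31.1% of the Hacl1 exons, and a gene on the opposite strand covers 11.5% of the Pecr exons. In carnitine synthesis and uptake, the setting of Aldh9a1, 2 of 3 genes were tested. Bbox1, which hydroxylates the product of Aldh9a1 to carnitine, fell by 0.53 (edgeR adjusted p = 0.0312), and it was not called without 0 h replicate 1 (-0.53), 0 h replicate 3 (-0.42) or 48 h replicate 1 (-0.37), nor with scaling by library size alone (-0.31, edgeR adjusted p = 0.192). Among all genes tested 19.3% were lower and 21.4% higher. Lower genes made up 4 of 5 in the partners, 5 of 6 in the phytol routes, 5 of 8 in the kynurenine route, 1 of 2 in the carnitine list, 4 of 11 among further ADH and ALDH genes, 8 of 25 in retinoid handling, 3 of 10 among the 10 dehydrogenases and 4 of 19 among the reductases and oxidases. The differences between these lists were not tested.

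**Figure D4:**
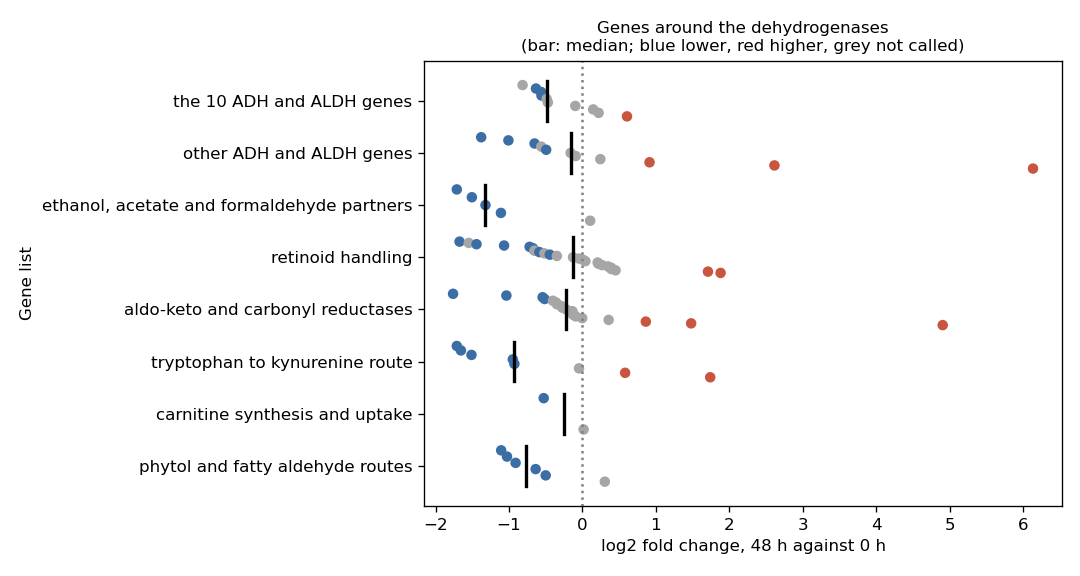
log2 fold change of 48 h against 0 h for each tested gene, with 1 row of points per gene list, blue for lower, red for higher and grey for not called at an adjusted p of 0.05, and a bar at the list median. The medians run from -1.32 for the ethanol, acetate and formaldehyde partners to -0.13 for retinoid handling, with -0.48 for the 10 ADH and ALDH genes. The rightmost points, Aldh3b3 and Akr1b7, had at most 1 count per library at 0 h, so their position depends on the prior count.

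The genes with the most similar pattern were sought among 7467 genes outside these lists, by the Euclidean distance of centred log2 CPM over the 6 libraries. The closest match was that of Aldh2 with Auh, a mitochondrial enzyme of leucine breakdown, at a distance of 0.0661 and with a log2 fold change of -0.65 against -0.63. Adh5 was matched with Ell (distance 0.0665) and Aldh9a1 with Slc26a1 (0.0951). Aldh1a7 was nearest to Set, at 0.155 and with a log2 fold change of 0.63, and Adh1 to Psmf1, at 0.127. Aldh8a1 was nearest to Dedd2 (0.113), Aldh1b1 to Nsdhl (0.199), Adh4 to Nfix (0.200) and Aldh1a1 to Bnip3 (0.237). Aldh3a2, whose 48 h libraries were far apart, had the poorest match, Gm8941 at 0.375. They rest on 6 libraries and many candidates and are given as a description.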

How the data were processed

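Hepatocyte RNA from 6 mouse preparations (3 at 0 h, 3 at 48 h after PHx) was sequenced on Illumina libraries. The authors deposited raw counts per gene for each library, in the layout of HTSeq output. The submitters' processing notes name FastQC 0.11.5, Trim Galore 0.6.4, STAR 2.6, HTSeq 0.12.4, DESeq2 and the build mm10. The strand setting and read length are not given in the sources used here. Versioned gene identifiers were matched to GENCODE M21 on GRCm38, and promoter sequences came from RefSeq on GRCm38.p6, with 11 entries for 9 of the 10 genes. The paper gives the age of the mice differently from the labels, and the labels were used.

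A gene was tested if 3 or more libraries held 10 or more counts of it. The test was that of edgeR 4.0.16 under R 4.3.3 (TMM, glmQLFit and glmQLFTest, time as the only term), and p was adjusted by the Benjamini-Hochberg method. Values with 1 number per library were compared by exact permutation (two-sided, scipy 1.17.1). The alternatives were DESeq2 1.42.0, limma-voom (limma 3.58.1), other scalings, other filters, the replicate number as a block, and leaving out each library. The script was tested on simulated data. Replicates differed by far more than counting noise (chi-square per gene averaging at least 25.8). Reads on no gene stayed out of the totals, at 24.3% to 32.7% of the sum of gene counts, reads on no gene and ambiguous reads. Ambiguous reads, 4.27% to 5.29% of the same sum, also stayed out. At these depths 3 counts equal 0.0825 to 0.0955 CPM before TMM scaling, a floor that covers counting error only, since reads carry no molecular identifiers. TPM were computed from counts and the summed exon length per gene. Coding identity was taken from pairwise alignment of annotated coding sequences.

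The genes, the lists around them and the tests were chosen with earlier results of these data known. All 10 genes are named. From each other list the rule named up to 3 genes with the largest absolute log2 fold change among those called, with at least 10 CPM on average and no overlap between time points, and added Cyp2e1, Cat, Esd, Acss2 and the Adh cluster. Kmo, Bco1, Aldh7a1, Aldh18a1, Aldh3b1 and Aldh3b3 were named after their values were seen. Tmlhe was not matched in the annotation. Some genes of these lists are not reported here.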

Additional observations from a re-analysis of the deposited data

How the results depend on the processing

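Aldh1a7 (higher) and Aldh2 (lower) kept their calls in all 16 alternatives, and Aldh8a1 and Aldh9a1 in 15 of 16. The number of the 10 genes called lower was 3 in the main analysis, 5 with DESeq2, with TMM factors from protein-coding genes and with upper quartile scaling, 6 with no filter and 1 with library size only, and 3 to 5 with any 1 library left out. It was 5 without 0 h replicate 2, which added Adh4 and Aldh1a1, and 5 without 48 h replicate 3, which added Adh4 and Aldh3a2. The median log2 fold change of the 10 genes was -0.26 with library size only and between -0.64 and -0.33 with any 1 library left out. Over all genes, 3638 were higher and 3288 lower. With library size only 5308 were higher and 2110 lower, 71.6% of calls against 52.5%, because that scaling moves every fold change up. The log2 ratio of the summed levels was 0.10 in TPM and turned to -0.10 as a share of gene counts and to -0.17 as TMM-scaled counts per kilobase. The sign also turned for Adh5 (0.10, library size only), Aldh1b1 (-0.047 without 48 h replicate 1, and up to 0.44 with other libraries left out) and Esd (-0.029 without 0 h replicate 2, up to 0.18 with other libraries left out, and 0.31 with library size only), none of them called.

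The replicate numbers did not pair the libraries. They come from different mice, and deviations of same-numbered libraries correlated at 0.0335, -0.0674 and -0.138 across genes. A replicate block left 3237 higher and 2884 lower genes in all, and among the 10 genes 1 higher and 4 lower, with Aldh3a2 added (-0.99, edgeR adjusted p = 0.0187). In the blocked form the difference in the ADH share was 7.94 percentage points (exact sign-flip p = 0.25, the smallest that 3 pairs allow) and the log2 ratio of the sums was 0.10 (exact sign-flip p = 0.75). With 3 libraries per group, permutation tests cannot give a p under 0.1. Genes with few counts, such as Aldh3b3, have no reliable fold change at this depth.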
